A study of Mus musculus with 9 samples.

Results

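Transforming growth factor beta (TGF-beta) is read by regulatory T cells, a suppressive class of CD4 T cells defined by Foxp3, through a short chain of proteins. Described here are 10 genes of that chain, chosen by symbol as parts of the pathway, with earlier results of these data known, out of 34092 gene rows in the table of counts: the ligand Tgfb1, the receptors Tgfbr1, Tgfbr2 and Tgfbr3, the signal carriers Smad2, Smad3 and Smad4, the inhibitory Smad7, and the corepressors Ski and Skil. All 10 had a row, and all 10 passed the filter on low counts.

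The libraries were made from RNA of regulatory T cells in the resting state, sorted directly from mice without further culture. WT cells carried the genotype Foxp3gfp, a green fluorescent reporter at the Foxp3 gene, and CNS2KO cells the genotype Foxp3deltaCNS2-gfp, which adds to the reporter the loss of CNS2, a conserved noncoding element within Foxp3. Both groups therefore carried the reporter. By the labels there are 6 WT and 3 CNS2KO samples, with no age, sex or tissue of origin stated. The 2 columns numbered 407 were left out, because WT and CNS2KO samples both bear that number, which left 5 WT libraries (398, 402, 405, 1032 and 1037) and 2 CNS2KO libraries (399 and 408). Whether the libraries came from separate mice is not said, so p-values here measure the spread between libraries only, and that spread may be technical.

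TGF-beta is secreted in a latent form, and regulatory T cells hold that form on their surface by the protein Lrrc32 (GARP) until integrins release it. The active ligand joins the type II receptor Tgfbr2, which phosphorylates the type I receptor Tgfbr1. Tgfbr1 then phosphorylates Smad2 and Smad3, which enter the nucleus with Smad4. Smad7, Ski and Skil limit the response, and Smad7 and Skil are themselves induced by it. In T cells the pathway is known for inducing Foxp3 outside the thymus through another element of the gene, CNS1, and for restraining effector responses.

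Each library had between 16557424 (WT 402) and 21836578 (CNS2KO 399) reads on genes, and levels are given in CPM, that is, scaled to a common total of such reads, with TMM factors. A floor of 3 reads stood between 0.142 and 0.182 CPM. Markers carried by regulatory T cells were high in all libraries, with a summed level of 4496 to 5331 CPM in WT and 4646 and 5059 CPM in CNS2KO for Foxp3, Il2ra, Ctla4, Ikzf2, Cd4 and Cd3e. Of these, Cd4 and Cd3e mark other T cells as well. Markers of other cells summed to 44.1 to 60.5 CPM in WT for 6 B cell genes, to 65.4 to 92.0 CPM for 7 myeloid genes and to 43.7 to 59.1 CPM for 6 CD8 and NK cell genes, of which Ncr1 was at 0 in every library. In CNS2KO 399 and 408 these sums were 82.5 and 41.2 CPM (B cell), 86.2 and 100.3 CPM (myeloid) and 54.2 and 48.3 CPM (CD8 and NK). The genes of highest mean in them were Cd79b, Cst3 and Cd8b1. Both CNS2KO libraries exceeded every WT library for Lyz2 (16.7 and 10.1 CPM, WT at most 9.26) and Tyrobp (5.05 and 1.72, at most 1.14). So they did for Cd68 (2.13 and 2.53, at most 2.09) and Gzma (6.28 and 2.39, at most 1.03). They did so for no other gene of these sums, while 3.76% of all genes tested lay above in this way. Log2 fold changes were positive in 5 and negative in 2 of the 7 myeloid genes, with Csf1r at -0.32 and Itgam at -0.39. Of the 5 CD8 and NK genes tested, 3 were positive and 2 negative, with Cd8b1 at -0.54 and Cd8a at -0.34. Of the 5 B cell genes tested, 2 were positive and 3 negative. Erythroid markers stood apart in CNS2KO 399, with 156 CPM over 6 genes, against 31.2 CPM in CNS2KO 408 and 6.84 to 27.6 CPM in WT.

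The start regions of the ligand and of the type I receptor are shown because the former was barely read and the latter highly read, while both begin in GC-rich DNA. The sequences are from RefSeq on GRCm38.p6, from 250 bases before to 50 bases after the annotated start, on the plus strand, with the 50 transcribed bases in capitals. That of Tgfb1 is at chr7:25686752-25687051 and that of the upstream Tgfbr1 start at chr4:47352972-47353271.
Tgfb1: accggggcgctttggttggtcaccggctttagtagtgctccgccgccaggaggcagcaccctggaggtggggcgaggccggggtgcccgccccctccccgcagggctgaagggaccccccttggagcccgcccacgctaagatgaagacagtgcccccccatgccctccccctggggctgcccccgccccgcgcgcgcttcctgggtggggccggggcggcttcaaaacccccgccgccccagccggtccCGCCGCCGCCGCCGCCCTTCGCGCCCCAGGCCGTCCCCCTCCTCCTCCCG
Tgfbr1: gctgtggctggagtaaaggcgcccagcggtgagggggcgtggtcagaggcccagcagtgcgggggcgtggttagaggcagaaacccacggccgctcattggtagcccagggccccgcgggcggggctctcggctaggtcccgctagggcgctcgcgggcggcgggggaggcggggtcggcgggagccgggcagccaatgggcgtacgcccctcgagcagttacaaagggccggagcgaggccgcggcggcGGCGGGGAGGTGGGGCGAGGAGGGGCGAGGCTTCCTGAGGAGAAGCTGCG
GC made up 77.0% of the Tgfb1 window and 74.7% of the Tgfbr1 window. The core of the Smad binding element, CAGAC or its reverse complement GTCTG, occurs in neither, and in 49.6% of the 32851 promoter windows of the table on either strand. The table held windows for 5 of the 10 genes, and of the others Ski (85.3% GC) and Smad3 (67.7% GC) had no match, while Tgfbr2 (59.0% GC) and a second, downstream Tgfbr1 window (52.0% GC) had 1 each. A match describes letters only, and no binding or chromatin was measured.

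The ligand gene Tgfb1 was close to the floor. It had 9 reads in WT 398, 1 in WT 402, 28 in WT 405, 7 in WT 1032, 8 in WT 1037, 0 in CNS2KO 399 and 16 in CNS2KO 408, 69 reads in all. In CPM these were 0.490, 0.0607, 1.42, 0.378 and 0.467 in WT in that order, below the floor in CNS2KO 399 (up to 0.142 CPM allowed by 0 reads) and 0.765 in CNS2KO 408. The value of CNS2KO 408 lay inside the WT range, and 2 of the 7 libraries were at or under 3 reads. The fitted log2 fold change of -0.56 had a 95% interval of -4.41 to 3.30 (edgeR adjusted p = 1), so that a difference in Tgfb1 was not detectable at this depth. The value was -1.69 by limma-voom and -1.95 by limma on the deposited log2 values, and by edgeR it was 0.44 without CNS2KO 399. No gene overlaps Tgfb1 in the GENCODE M21 annotation, but the annotation used for counting is not given and may differ.

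The Tgfb1 transcript was the shortest of the 10 and the richest in GC. The longest RefSeq-matched transcript in GENCODE M21 (GRCm38) has 2175 bases and 62.5% GC, a GC content above that of 98.5% of 18467 genes with such a transcript. Transcripts of the other 9 genes range from 41.0% GC (Tgfbr1 and Skil) to 56.9% (Smad7). Of 3391 genes with 55 to 60% GC, 54.4% had a mean of at least 1 CPM and 35.0% of at least 10 CPM. Of the 782 genes with 60 to 65% GC, the range that holds Tgfb1, 35.9% and 13.9% did. Above 65% these shares were 7.62% and 0% of 105 genes. The part of GC content in the low Tgfb1 count was not tested.

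**Figure D1:**
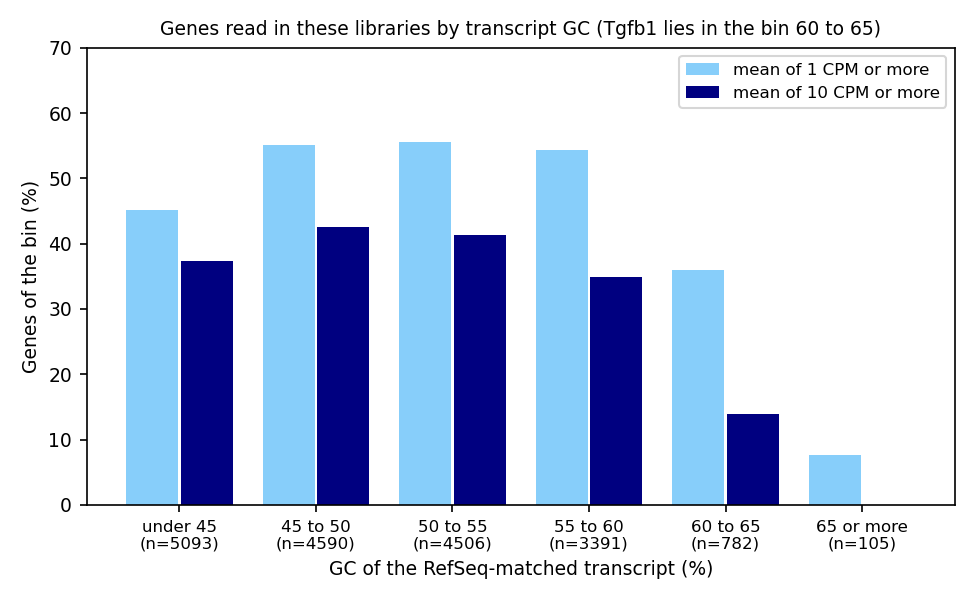
Share of genes (y axis, percent of the genes in each bin) whose mean over the 7 libraries was at least 1 CPM (light bars) or at least 10 CPM (dark bars), by GC content of the transcript (x axis). The shares are lower in the bins from 60% GC upwards, where Tgfb1 lies, at 35.9% and 13.9% for 60 to 65% GC.

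The other 9 genes were well covered, with 99 to 10829 reads per library. Per kilobase of the same transcripts, the corepressor Skil had the highest WT level, 58.1 ± 17.3 CPM per kb (SD, n = 5), and its lowest WT library (43.9) lay above the highest for Tgfbr1. Tgfbr1 was next at 26.5 ± 7.81 CPM per kb, with a range of 18.9 to 37.0. Smad4 (14.2 ± 1.45), Smad2 (12.3 ± 1.86), Tgfbr2 (11.4 ± 1.93), Ski (10.3 ± 1.60) and Smad3 (8.33 ± 2.34 CPM per kb) followed, and among these 5 the ranges of neighbours in this order overlapped. Smad7 stood at 4.93 ± 1.60 and Tgfbr3 at 2.48 ± 1.05 CPM per kb, and Smad7 overlapped in range with both Smad3 and Tgfbr3. Tgfb1 came last at 0.259 ± 0.235 CPM per kb, its highest WT library (0.655) below the lowest for Tgfbr3 (0.979). The order rests on 1 transcript per gene, and the transcripts used in these cells were not measured. In CNS2KO the means per kilobase were 53.2 for Skil, 26.8 for Tgfbr1, 11.6 for Smad4, 10.4 for Smad2, 10.3 for Ski, 9.92 for Tgfbr2, 8.76 for Smad3, 3.50 for Smad7, 1.24 for Tgfbr3 and 0.176 for Tgfb1.

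**Figure D2:**
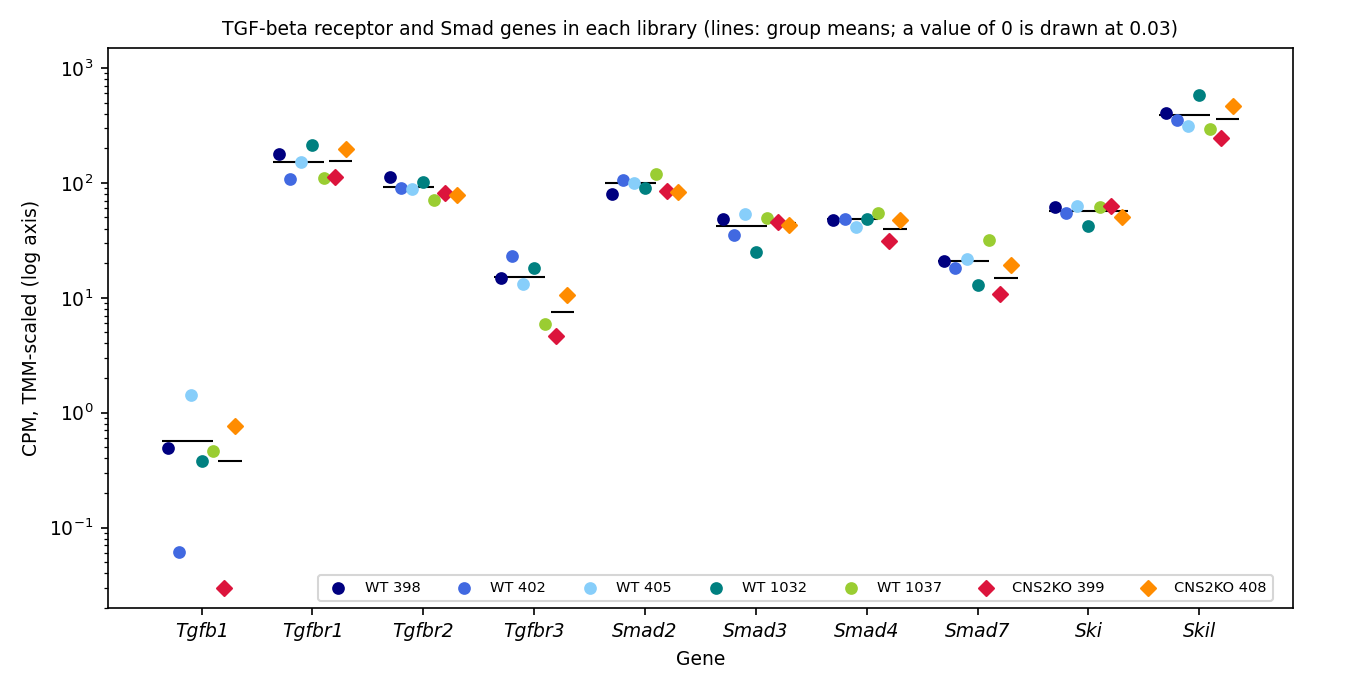
Level of each gene (x axis) in each library as TMM-scaled CPM (y axis, log scale), with circles for 5 WT and diamonds for 2 CNS2KO libraries and lines at the group means. Tgfb1 lies at 1.42 CPM or below in every library, and in no gene do both CNS2KO libraries lie outside the WT points.

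The question posed by the design was whether these transcripts differed in resting cells without CNS2, and 0 of the 10 passed edgeR's quasi-likelihood test at an FDR of 0.05. Over all 14424 genes tested 0 passed as well (0%), and 361 had an unadjusted p under 0.05 (2.5%), among them 0 of the 10. DESeq2, limma-voom and limma on the deposited log2 values also called 0 genes, with 496, 614 and 563 genes at an unadjusted p under 0.05. Fold changes were negative in 8 of the 10 and positive in 2, with a median log2 of -0.22, while over all genes tested 52.6% were negative and the median was -0.03. CNS2KO 399 was the lowest library for 4 of the 9 genes other than Tgfb1 and CNS2KO 408 for 0. In 0 of the 10 did both CNS2KO libraries lie below every WT library (3% of all genes tested) or above (3.76%). In 4 of the 10 both fell within the WT range. For this count and for that of lowest libraries, the share over all genes tested was not counted. The two-sided exact permutation test over 21 assignments, whose smallest possible p is 0.0476, gave the 9 genes p from 0.0952 to 1.

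The columns of WT 1032 and WT 1037 bear another prefix than those of the other 5 libraries, and what the prefixes stand for is not stated. Among the 3 WT and 2 CNS2KO libraries that share a prefix, 0 genes passed edgeR's test and 271 had an unadjusted p under 0.05. The log2 fold changes there were -1.17 for Tgfbr3 (unadjusted p = 0.035, adjusted p = 1), -0.44 for Smad7, -0.27 for Tgfbr2, -0.21 for Smad4 and -0.18 for Smad2. Those of Tgfbr1 (0.07), Ski (-0.08), Smad3 (-0.039) and Skil (0.0026) were close to 0. Libraries of the other prefix were WT only and give no such value. Within the shared prefix, both CNS2KO libraries lay below all 3 WT libraries for Tgfbr3 (4.68 and 10.5 CPM, WT at least 13.1). The same held for Tgfbr2 (81.3 and 79.2 CPM, WT at least 88.6). In no other gene of the 10 did both lie below or both above these WT libraries. The share over all genes tested was not counted for this.

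**Figure D3:**
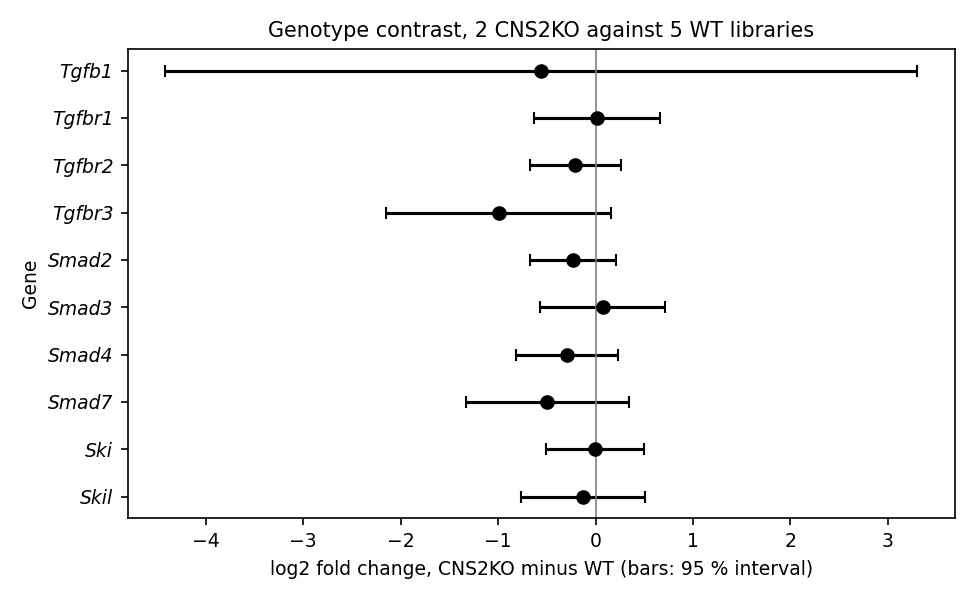
Fitted log2 fold change, CNS2KO minus WT (x axis), with its 95% interval for each gene (y axis), from 2 CNS2KO and 5 WT libraries. All 10 intervals cover 0, and that of Tgfb1, from -4.41 to 3.30, is far wider than the others.

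Among the receptors, Tgfbr1, the type I receptor kinase, had 180 CPM in WT 398, 109 in WT 402, 152 in WT 405, 213 in WT 1032 and 110 in WT 1037, and 113 in CNS2KO 399 and 196 in CNS2KO 408. The libraries fell on either side of the WT mean within both genotypes, and the CNS2KO pair spanned most of the WT range. The means were 153 ± 45.0 CPM in WT (SD, n = 5) and 154 ± 59.1 in CNS2KO (SD, n = 2), with a log2 fold change of 0.02 (SE 0.30, 95% interval -0.63 to 0.66). Without CNS2KO 399 the fold change was 0.37 and without CNS2KO 408 it was -0.45.

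Tgfbr2, the type II receptor that binds the ligand first, was steadier, at 112, 89.6, 88.6, 102 and 70.6 CPM in WT 398, 402, 405, 1032 and 1037, and at 81.3 and 79.2 CPM in CNS2KO 399 and 408. The CNS2KO libraries lay close together and inside the WT range. Of the WT libraries only WT 1037, of the other column prefix, was lower. The means were 92.5 ± 15.6 and 80.2 ± 1.50 CPM (log2 fold change -0.21, SE 0.21, 95% interval -0.67 to 0.26). This interval covers both no change and a log2 fold change of -0.67.

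Tgfbr3 (betaglycan), a coreceptor that presents the ligand to Tgfbr2, had the widest spread of the 9 and the largest fold change in size. It stood at 15.0 CPM in WT 398, 23.2 in WT 402, 13.1 in WT 405, 18.2 in WT 1032 and 5.96 in WT 1037, and at 4.68 in CNS2KO 399 and 10.5 in CNS2KO 408. CNS2KO 399 and WT 1037 were low together, and CNS2KO 408 lay between WT 1037 and the other WT libraries, so that the groups overlapped. The overlap rested on WT 1037 alone, a library of the other column prefix. The means were 15.1 ± 6.38 and 7.57 ± 4.10 CPM, with a log2 fold change of -0.99 (SE 0.53, 95% interval -2.15 to 0.16, unadjusted p = 0.085 by edgeR, exact permutation p = 0.190). Without CNS2KO 408 the fold change was -1.70, without CNS2KO 399 it was -0.52, and without WT 1037 it was -1.20 (unadjusted p = 0.023 by edgeR, adjusted p = 1). In GENCODE M21 the span of Tgfbr3 holds 4 other entries, 3 of the class TEC, whose coding status is unresolved, and 1 processed pseudogene, with 1 of the 4 on the opposite strand. No source used here says whether reads were counted by strand.

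The signal carriers Smad2 and Smad3, which Tgfbr1 phosphorylates, kept within the WT range in both CNS2KO libraries. Smad2 was at 80.3, 106, 100.1, 89.8 and 119 CPM in WT 398, 402, 405, 1032 and 1037, and at 85.1 and 83.8 CPM in CNS2KO 399 and 408. The CNS2KO libraries were above WT 398 and below the other 4 WT libraries. Means of 99.2 ± 15.0 and 84.4 ± 0.961 CPM gave a log2 fold change of -0.23 (SE 0.20, 95% interval -0.67 to 0.21).

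Smad3 was at 48.3, 35.1, 54.1, 25.2 and 49.4 CPM in the WT libraries in the same order and at 45.8 and 43.4 CPM in CNS2KO 399 and 408. WT 1032 and WT 402 were the low libraries. The means were 42.4 ± 11.9 and 44.6 ± 1.67 CPM (log2 fold change 0.07, SE 0.29, 95% interval -0.57 to 0.71).

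Smad4, the common partner that both carriers bind, had the smallest spread of the 9 among WT libraries, at 47.7, 48.0, 41.1, 48.9 and 54.9 CPM in WT 398, 402, 405, 1032 and 1037. CNS2KO 408, at 47.2 CPM, was inside this range, and CNS2KO 399, at 31.4 CPM, was below it. The means were 48.1 ± 4.91 and 39.3 ± 11.2 CPM, with a log2 fold change of -0.29 (SE 0.24, 95% interval -0.81 to 0.23, exact permutation p = 0.0952). Without CNS2KO 399 the fold change was -0.02, and without CNS2KO 408 it was -0.62. An annotated pseudogene lies within the span of Smad4 on the opposite strand.

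Smad7, which blocks Tgfbr1 and is induced by the pathway, was at 20.8, 18.1, 21.8, 12.9 and 31.7 CPM in WT 398, 402, 405, 1032 and 1037. It was lowest in CNS2KO 399, at 10.8 CPM, and within the WT range in CNS2KO 408, at 19.1 CPM. The means were 21.1 ± 6.85 and 15.0 ± 5.87 CPM (log2 fold change -0.49, SE 0.38, 95% interval -1.33 to 0.34). Without CNS2KO 399 it was -0.14, and without CNS2KO 408 it was -0.97.

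The corepressors differed from each other in spread. Skil (SnoN), which binds Smads on DNA and is degraded when the pathway is active, was at 403, 355, 312, 584 and 295 CPM in WT 398, 402, 405, 1032 and 1037, and at 247 and 467 CPM in CNS2KO 399 and 408. CNS2KO 399 was the lowest of the 7 libraries and CNS2KO 408 the second highest, after WT 1032. The means were 390.0 ± 116 and 357 ± 156 CPM (log2 fold change -0.13, SE 0.29, 95% interval -0.76 to 0.51). Without CNS2KO 399 the fold change was 0.27, and without CNS2KO 408 it was -0.67.

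Ski, the founding member of the same corepressor family, was at 62.3, 55.1, 62.4, 42.0 and 62.1 CPM in the WT libraries and at 63.1 and 50.2 CPM in CNS2KO 399 and 408. WT 1032 was the low library, and CNS2KO 399 was just above the highest WT library. The means were 56.8 ± 8.84 and 56.7 ± 9.13 CPM (log2 fold change -0.0027, SE 0.23, 95% interval -0.50 to 0.50).

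The CNS2KO deviations of the largest size, those of Tgfbr3, Smad7, Smad4 and Skil, came from CNS2KO 399. As log2 CPM minus the WT mean, CNS2KO 399 stood at -1.56 for Tgfbr3, -0.90 for Smad7, -0.61 for Smad4, -0.61 for Skil and -0.39 for Tgfbr1. For the same genes CNS2KO 408 stood at -0.39, -0.08, -0.02, 0.31 and 0.41. CNS2KO 408 was farther from the WT mean than CNS2KO 399 for Tgfbr1, Tgfbr2 and Smad2, by small margins. CNS2KO 399 was also the library with 156 CPM of erythroid markers and with 0 CPM over 6 platelet markers, which in WT summed to 0.926 to 3.58 CPM and of which Gp1bb and Treml1 were at 0 in every library. The part of these in the values of CNS2KO 399 was not tested. Fewer cells with a transcript and less of it per cell cannot be told apart in these bulk samples. For Tgfbr1, Skil and Ski the 2 CNS2KO libraries lay on opposite sides of the WT mean.

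**Figure D4:**
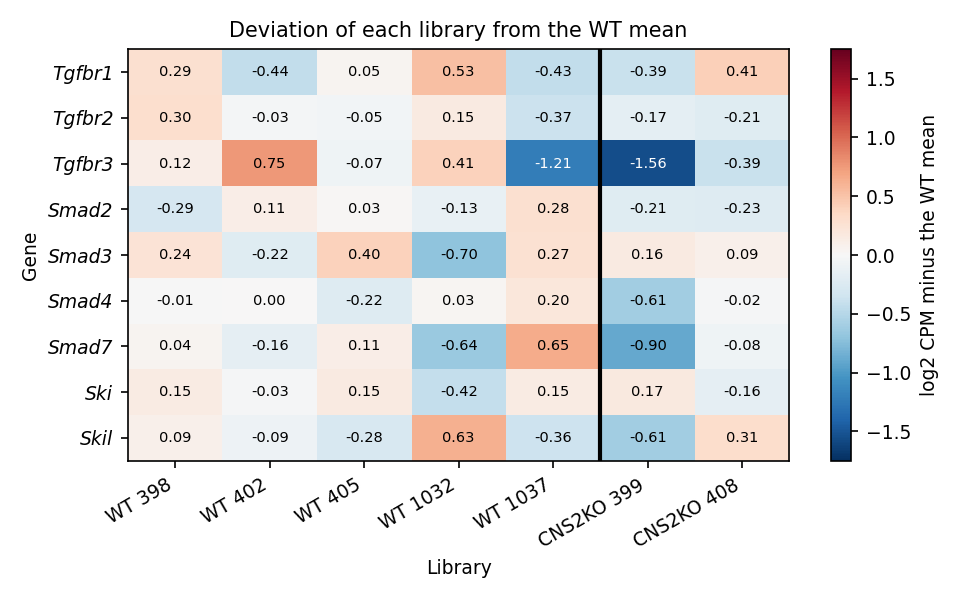
Deviation of log2 CPM from the WT mean for 9 genes (rows) in 5 WT and 2 CNS2KO libraries (columns, parted by the black line), red above and blue below. The lowest cells are those of Tgfbr3 in CNS2KO 399 (-1.56) and WT 1037 (-1.21), and the column of CNS2KO 408 holds no value beyond 0.41 in size.

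Spread within WT parted the genes as well. The coefficient of variation over the 5 WT libraries was 10.2% for Smad4, 15.2% for Smad2, 15.6% for Ski and 16.9% for Tgfbr2, below the median of 20.6% over 8348 tested genes with a WT mean of at least 10 CPM. It was 28.1% for Smad3, 29.5% for Tgfbr1, 29.9% for Skil, 32.5% for Smad7 and 42.3% for Tgfbr3. The last ranked above 93.7% of those genes, and Smad4 above 9.94%. In each of the 9 genes WT 1032 or WT 1037, the libraries of the other column prefix, held the highest or the lowest WT value. For Smad7 they held both, at 12.9 and 31.7 CPM, against 18.1 to 21.8 CPM in the other WT libraries. For Skil they held both as well. The part of the prefix in this spread was not tested.

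Libraries with much Tgfbr1 also had much Skil. The 36 pairs among the 9 genes were compared over the 7 libraries by log2 CPM, with both genotypes together since neither has 6 libraries. Tgfbr1 and Skil had a Pearson's r of 0.85 (exact permutation p = 0.0194, adjusted p = 0.276) and a Spearman's rho of 0.75 (exact permutation p = 0.0663, adjusted p = 0.596), and r was 0.92 without WT 402 and WT 1032, the libraries farthest from the median of Tgfbr1. Ski and Skil ran opposite ways, with r = -0.87 (exact permutation p = 0.00714, adjusted p = 0.257) and rho = -0.82 (exact permutation p = 0.0341, adjusted p = 0.596). That relation rested in part on WT 1032 and CNS2KO 408, without which r was -0.40. Smad3 and Ski had r = 0.89 (exact permutation p = 0.0230, adjusted p = 0.276) and rho = 0.71 (exact permutation p = 0.0881, adjusted p = 0.625), with r = 0.66 without WT 402 and WT 1032. After adjustment over the 36 pairs 0 passed. Transcript GC was 41.0% for both Tgfbr1 and Skil, 53.1% for Smad3 and 55.6% for Ski. The part of GC content in these relations was not tested.

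Ratios of 2 genes within a library do not depend on how libraries are scaled, and 4 were compared. The genes of each ratio differed in transcript GC. It was 41.0% for Skil and 55.6% for Ski, and 41.0% for Tgfbr1 and 49.6% for Tgfbr2. Smad3 had 53.1% and Smad2 44.9%, and Smad7 had 56.9% and Smad4 49.4%. Among WT libraries, WT 1032 had the value farthest toward the gene of lower GC in each ratio. The part of GC content in the ratios was not tested. The log2 ratio of Skil to Ski reads was 2.70, 2.69, 2.32, 3.80 and 2.25 in WT 398, 402, 405, 1032 and 1037, and 1.97 and 3.22 in CNS2KO 399 and 408. CNS2KO 399 was the lowest of the 7 libraries and CNS2KO 408 the second highest, after WT 1032. The log2 ratio of Tgfbr1 to Tgfbr2 reads was 0.68, 0.28, 0.78, 1.07 and 0.63 in the WT libraries and 0.47 and 1.31 in CNS2KO 399 and 408, the last being the highest of all.

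The ratio of Smad3 to Smad2 reads was closest between the CNS2KO libraries, with log2 values of -0.90 and -0.95 in CNS2KO 399 and 408, against -0.74, -1.60, -0.89, -1.83 and -1.27 in WT. That of Smad7 to Smad4 was -1.54 and -1.30 in CNS2KO 399 and 408 and ranged from -1.92 (WT 1032) to -0.79 (WT 1037) in WT. CNS2KO minus WT, the mean log2 ratios differed by 0.34 for Smad3 to Smad2, -0.16 for Skil to Ski, 0.20 for Tgfbr1 to Tgfbr2 and -0.17 for Smad7 to Smad4. Two-sided exact permutation tests gave p = 0.429, 0.857, 0.571 and 0.667 in this order, each with an adjusted p = 0.857 over the 4. Without CNS2KO 399 the difference was 0.47 for Skil to Ski and 0.62 for Tgfbr1 to Tgfbr2, and without CNS2KO 408 it was -0.78 and -0.22. Without WT 1032 the Skil to Ski difference was 0.11.

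**Figure D5:**
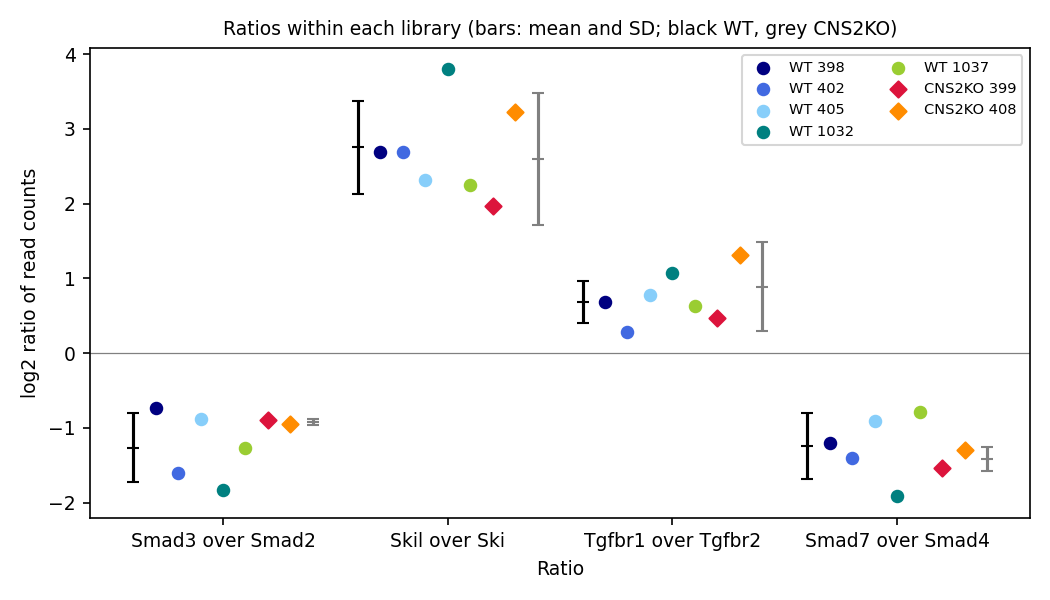
Log2 ratio of read counts of 2 genes (y axis) for the 4 ratios (x axis) in each of 5 WT (circles) and 2 CNS2KO (diamonds) libraries, with mean and SD in black for WT and grey for CNS2KO. The Skil to Ski ratio of WT 1032, 3.80, stands above the rest, and for each ratio at least 1 of the CNS2KO points lies inside the WT range.

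Beyond these 10 genes, 74 genes in 6 lists of the wider pathway were read from the same fit. Of these 58 were tested, 16 were too low, and 0 passed in either direction, with 0 at an unadjusted p under 0.05 (2.5% of all genes tested). Fold changes were positive in 26 and negative in 32, with a median log2 of -0.02, while 52.6% of all genes tested were negative. Both CNS2KO values were above every WT library in 1 gene (Trim33) and below in 1 (Ldlrad4), which are 1.72% each of those tested, where all genes tested had 3.76% above and 3% below.

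Of 13 genes for ligands, latent storage and activation, 8 were tested, 3 positive and 5 negative (median log2 -0.15). Lrrc32, the surface anchor of latent TGF-beta on regulatory T cells, was at 331, 94.98, 194, 243 and 86.5 CPM in WT 398, 402, 405, 1032 and 1037 and at 151 and 253 CPM in CNS2KO 399 and 408, a spread within WT far wider than its log2 fold change of 0.09 (SE 0.45). The related anchor Nrros, listed by its older symbol Lrrc33, was at 103 ± 9.31 CPM in WT and 94.6 ± 32.8 in CNS2KO. The integrin chains Itgav (log2 fold change -0.46, SE 0.28) and Itgb8 (-0.59, SE 0.38), which together release the active ligand, were each below the WT range in CNS2KO 399, at 24.6 and 18.4 CPM, and inside it in CNS2KO 408, at 47.0 and 46.5 CPM.

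Of 12 receptors of the wider family 7 were tested (4 positive, 3 negative, median log2 0.03), all at low levels. The activin-type receptors Acvr1c and Acvr2a stood at 12.5 ± 5.45 and 12.3 ± 6.10 CPM in WT and 13.9 ± 1.19 and 11.4 ± 2.45 CPM in CNS2KO. The BMP receptor Bmpr1a stood at 4.19 ± 2.87 and 2.09 ± 0.923 CPM and the endothelial-type receptor Acvrl1 at 6.01 ± 2.44 and 7.74 ± 1.41 CPM.

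Of 12 BMP Smads and Smad partners 8 were tested (3 positive, 5 negative, median log2 -0.19). Sptbn1, a spectrin that brings Smads to the receptor and is listed by its older symbol Spnb2, was at 417 ± 114 CPM in WT and 331 ± 78.6 in CNS2KO. The acetylases Crebbp and Ep300, coactivators of Smads, had log2 fold changes of -0.05 (SE 0.19) and -0.53 (SE 0.29). Trim33, a ubiquitin ligase that competes with Smad4 for the carriers, was at 72.7, 51.1, 76.0, 64.6 and 54.8 CPM in WT 398, 402, 405, 1032 and 1037 and at 76.4 and 87.6 CPM in CNS2KO 399 and 408 (log2 fold change 0.36, SE 0.22, unadjusted p = 0.12 by edgeR). CNS2KO 399 was above WT 405 by less than 1 CPM.

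All 15 genes for inhibitors and turnover were tested, 4 positive and 11 negative (median log2 -0.13). The deubiquitinases Usp4 and Usp15, which act on the receptor and on Smads, stood at 223 ± 33.3 and 187 ± 30.4 CPM in WT and 204 ± 30.4 and 223 ± 32.0 CPM in CNS2KO. Ldlrad4, a membrane inhibitor of Smad phosphorylation listed by its older symbol D18Ertd653e, was at 29.8, 22.7, 23.9, 45.2 and 25.6 CPM in WT and at 18.3 and 21.3 CPM in CNS2KO 399 and 408 (log2 fold change -0.57, SE 0.32, unadjusted p = 0.10 by edgeR).

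The 8 genes of the kinase branch through Map3k7 (TAK1) were all tested, 4 positive and 4 negative (median log2 0.03), with the adaptor Tab2 at 107 ± 6.09 CPM in WT and 106 ± 15.3 in CNS2KO. The ubiquitin ligase Traf6 had a log2 fold change of -0.27 (SE 0.32) and Tab3 of -0.25 (SE 0.36).

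Of 14 genes that respond to TGF-beta in T cells 12 were tested, 8 positive and 4 negative (median log2 0.04). The orphan receptor Gpr83 was at 821 ± 109 CPM in WT and 844 ± 117 in CNS2KO, and Foxp3, on which the pathway acts, at 488 ± 78.9 and 452 ± 15.9 CPM. Rgs16, a regulator of G protein signals, had a log2 fold change of -1.45 (SE 0.92) at 4.77 ± 2.08 and 1.74 ± 2.06 CPM. Tgfbi, a matrix gene induced by TGF-beta in many cells, was at 1.09, 0, 0, 0 and 0.117 CPM in WT and 1.13 and 0.717 CPM in CNS2KO.

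The authors' deposited table of 1 signed value per gene names neither its groups nor its direction. In the authors' deposited table Tgfbr1 had the value 0.37, Tgfbr2 -0.05, Tgfbr3 -0.37, Smad2 -0.06, Smad3 0.08, Smad4 -0.28, Smad7 0.25, Ski -0.26, Skil 0.13 and Tgfb1 -0.06. Its values range from -0.37 to 0.37 for these 10 genes, with no interval or p, and were not set against the fold changes above.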

How the data were processed

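Per the labels, RNA from sorted regulatory T cells was amplified by a SMARTer kit and sequenced as Ion Proton libraries. Tools named in the submitters' processing notes are STAR, BWA and edgeR, with the build mm9. Which annotation and counter were used is not given in the sources used here. Per the file headers and values, the authors deposited whole-number counts per gene symbol (5 summary rows of the counter were left out of library sizes and tests), log2 values, and 1 signed value per gene, treated as a score, which the authors deposited without naming its groups. Per table, 2 value columns numbered 407 were not used. Counts of 5 WT and 2 CNS2KO libraries were compared in R 4.3.3 with edgeR 4.0.16: filterByExpr, TMM, two-sided quasi-likelihood test, Benjamini-Hochberg over all genes tested at an FDR of 0.05. The SE of a fold change was taken from its F statistic. Alternatives used DESeq2 1.42.0 and limma 3.58.1. The tests were checked on simulated counts. Floors cover counting error only. Transcript lengths and GC came from GENCODE M21, while symbols match the files without a shared build, so no coordinates of the counted genes are given. The members and lists were chosen with earlier results of these data known. Named were the 10 members and, per pathway list, genes past the threshold or else the 2 with the highest mean and the 2 with the smallest p. Trim33 and Ldlrad4 fall under that rule as well. The values of 1 listed gene are not reported here.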

Additional observations from a re-analysis of the deposited data

Results flagged for a closer look

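Of 14 checks of 5 WT values each (10 genes and 4 ratios), 1 had a library far from the others, and it passed the limit narrowly. Chance gives about 1 in 20 per check, so 1 among 14 checks is not beyond chance. The log2 ratio of Skil to Ski reads was 3.80 in WT 1032, and the next WT value was 2.70 in WT 398. WT 1032 had the highest Skil level and the lowest Ski level of the WT libraries.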

How the results depend on the processing

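The count of genes called was 0 in all alternatives but that without a low-count filter, which gave 8 of 21963 (7 higher and 1 lower), 0 of them among the 10 genes. No fold change or ratio of the 10 genes passed the threshold in any alternative run. With no library left out, 6 of 87 alternative values had the other sign: Ski at 0.0043 by limma-voom and 0.0057 by limma on the deposited log2 values, Skil at 0.0026, Smad3 at -0.039 and the Skil to Ski ratio at 0.026 with WT numbers of 3 digits only (column names of 1 prefix), and Tgfbr1 at -0.0090 with at least 10 CPM in 2 libraries, a filter that removed Tgfb1. The cause was not tested. With each library left out in turn, log2 fold changes ranged from -0.17 to 0.15 for Ski, -0.67 to 0.27 for Skil, -0.30 to -0.16 for Smad2, -0.067 to 0.18 for Smad3, -0.62 to -0.02 for Smad4, -0.97 to -0.14 for Smad7, -6.41 to 0.44 for Tgfb1 (not tested without WT 405), -0.45 to 0.37 for Tgfbr1, -0.29 to -0.13 for Tgfbr2 and -1.70 to -0.52 for Tgfbr3. The ratios ranged from -0.78 to 0.47 (Skil to Ski), 0.20 to 0.48 (Smad3 to Smad2), -0.34 to -0.058 (Smad7 to Smad4) and -0.22 to 0.62 (Tgfbr1 to Tgfbr2). Where a CNS2KO library was left out, the lone one was assumed to vary like the WT libraries. Without CNS2KO 408 the count at an unadjusted p under 0.05 was 1676, with 0 genes called. No paired analysis was possible because the genotypes share only the number 407, whose columns were not used. Tgfb1 had 0 to 28 reads per library, and each other gene at least 99.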
